A study of Mus musculus with 6 samples.

Results

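The genes described here are 10 immediate-early transcription factor genes of 3 families: Egr1, Egr2 and Egr3, Nr4a1 and Nr4a3, and the AP-1 genes Fos, Fosb, Jun, Junb and Jund. They were chosen by gene symbol among 19937 genes with an annotated probe set, and all 10 were measured, each by 1 probe set. Every sample was Thy1.2+ cells purified with magnetic beads from thymi of Rag1-/- mouse embryos at E17.5, a genotype all 3 groups share. Without Rag1 no T cell receptor gene is rearranged and thymocytes halt before beta-selection; antibody to CD3 stands in for the missing pre-T cell receptor signal. The groups were fresh cells at 0 h (Control-0h, unstimulated), cells after 40 h with anti-CD3 and the vehicle DMSO (Control-DMSO-40h), and cells after 40 h with anti-CD3 and 50 µM 79-6 (79-6-40h), a small molecule inhibitor of the BTB domain of the repressor Bcl6. Each group had 2 arrays, here called replicates 1 and 2. The labels do not say whether replicates came from separate litters or cultures, nor whether thymi were pooled, so a p-value here reflects the spread of the arrays alone, which may be technical. The compound was given at a single dose. Values are log2 of RMA array intensity throughout, and changes are differences of these.

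Immediate-early genes are transcribed within minutes of a receptor signal, without new protein synthesis, through factors such as SRF with its Ets partners, CREB and Mef2 that wait on their promoters. Egr proteins are zinc finger activators that carry the Ras and MAP kinase signal of the pre-T cell receptor at beta-selection. Nr4a proteins are orphan nuclear receptors whose level follows the strength of antigen receptor signals, and AP-1 is a dimer of a Jun protein with a Fos or another Jun protein. The arrays hold 0 h and 40 h only, so an early peak after anti-CD3 was not sampled.

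The arrays had median intensities between 99.3 and 104, and correlated across genes at 0.997 to 0.998 within groups and at 0.979 to 0.995 between groups. Of 8 measured T-lineage markers, 3 were called higher (Thy1, Ptprc and Cd2) and 3 lower (Cd3e, Cd3g and Ptcra) for DMSO against fresh, and none for 79-6 against DMSO, with 1 at an unadjusted p under 0.05 by limma. Thy1, on which the cells were selected, lay between 12.78 and 13.26 and Cd3e between 12.94 and 13.46 in the 6 arrays. Ptcra, the invariant pre-T cell receptor chain, went from 11.87 and 11.80 in fresh arrays to between 9.93 and 10.06 in culture. Cd2 went from 6.45 and 6.99, below the median level of all genes (7.13), to between 10.06 and 10.22. Markers of other cells were measured as well, some of them below that median level. B cell markers had 3 of 8 lower and none higher for DMSO against fresh and 1 higher (Cd79b, lost without either DMSO array or 79-6 replicate 2) for 79-6 against DMSO. Mesenchymal and endothelial markers had 1 of 12 higher and 3 lower, then 1 lower, of which the rise was lost without either fresh array or DMSO replicate 2, the 3 falls became 1 without DMSO replicate 1, and the last was lost without any 1 array and with the replicate block. By mean over the 6 arrays, Cd79b (11.13) was the only B cell marker above 7.13. The 3 that fell, Ebf1 (6.06), Blk (6.45) and Igll1 (6.91), lay below it. Of the mesenchymal and endothelial markers that fell with DMSO, Kdr (5.68) and Cdh5 (6.67) lay below it and Pdgfrb (9.885) above. Levels below 7.13 do not by themselves show that such cells were present. The other lists stand beside the genes they moved with.

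The regions before the starts of 4 members are shown because these genes had the largest changes in either direction (Nr4a1, Jun and Fosb) or moved against their relative (Nr4a3). Each is the 250 bases before the start, of a 300-base window that runs 50 bases past it, on the strand of the gene from RefSeq's GRCm38.p6 table, 5′ to 3′, ending just before the start site, and the 50 bases after it were neither shown nor searched. Nr4a1 lies at chr15:101266596-101266845 on the plus strand, Nr4a3 at chr4:48045055-48045304 on the plus strand, Jun at chr4:95052223-95052472 on the minus strand and Fosb at chr7:19310046-19310295 on the minus strand. Capitals mark the motifs listed after the sequences.
Nr4a1: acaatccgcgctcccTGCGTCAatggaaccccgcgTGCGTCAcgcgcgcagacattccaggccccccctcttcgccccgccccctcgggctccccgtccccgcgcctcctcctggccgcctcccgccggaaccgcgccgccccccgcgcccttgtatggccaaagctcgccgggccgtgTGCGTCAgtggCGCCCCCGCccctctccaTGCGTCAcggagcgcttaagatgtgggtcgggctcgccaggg
Nr4a3: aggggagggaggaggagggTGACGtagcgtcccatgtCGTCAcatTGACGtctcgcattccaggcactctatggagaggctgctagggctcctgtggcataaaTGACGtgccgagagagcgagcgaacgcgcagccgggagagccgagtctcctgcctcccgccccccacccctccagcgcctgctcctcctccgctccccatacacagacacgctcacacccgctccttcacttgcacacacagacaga
Jun: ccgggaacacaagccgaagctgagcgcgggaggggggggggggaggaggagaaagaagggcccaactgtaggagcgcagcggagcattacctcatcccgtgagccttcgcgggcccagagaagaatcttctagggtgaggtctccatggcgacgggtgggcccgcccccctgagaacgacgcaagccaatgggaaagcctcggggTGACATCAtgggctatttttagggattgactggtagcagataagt
Fosb: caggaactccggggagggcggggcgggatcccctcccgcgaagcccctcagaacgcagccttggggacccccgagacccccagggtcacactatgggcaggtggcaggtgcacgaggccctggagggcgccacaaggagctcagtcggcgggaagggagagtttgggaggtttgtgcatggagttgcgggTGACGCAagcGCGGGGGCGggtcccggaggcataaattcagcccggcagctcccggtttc

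The table held such windows for 8 of the 10 members, and every motif was searched on both strands of the same 250 bases in 32851 windows. Nr4a1 held 4 copies of the AP-1-like element TGCGTCA, 235, 215, 71 and 42 bases before the start. This element was in 1.75% of all windows, and the Nr4a1 window was the only window with 3 or more copies. Fosb held 1 copy, 60 bases before its start. The Jun window held the AP-1-like element TGACATCA 45 bases before the start, an element present in 2.93% of windows. The core TGACG of the cyclic AMP response element, which overlaps TGCGTCA on the other strand, occurred 4 times in Nr4a3. It occurred at least once in 6 of the 8 members, and in 17.8% of windows. A member was counted if any of its windows matched, and Egr2 had 5 windows, so these 2 figures differ in unit. These 3 motifs were chosen after the sequences were seen. Among the others, the Egr site GCGGGGGCG (2.57% of windows) was in Nr4a1 and Fosb, and the CArG box bound by SRF (1.47%) in Egr2. The full cyclic AMP response element TGACGTCA (1.55%), the AP-1 site TGACTCA (4.46%), the Egr site GCGTGGGCG (0.536%) and the Nr4a site AAAGGTCA (1.34%) had no match in these windows. A match is only a match of letters, and binding was not measured.

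**Figure D1:**
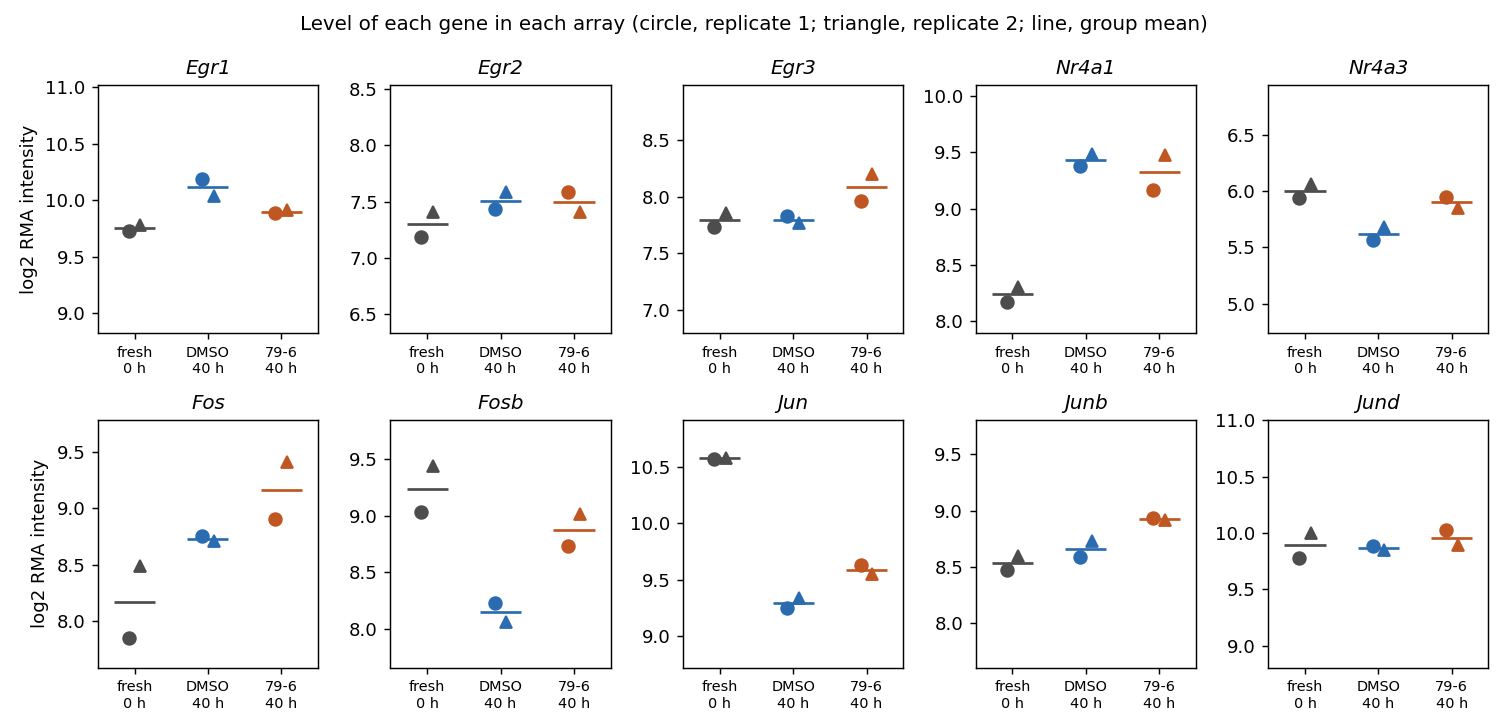
Log2 RMA intensity (y axis) of the 10 immediate-early genes in the fresh 0 h, DMSO 40 h and 79-6 40 h groups (x axis), with 2 arrays per group as points, group means as lines, and the same height of scale in every panel. Nr4a1 sits higher and Jun lower in both cultured groups than in the fresh arrays, Fosb is lowest in the DMSO arrays, and Jund stays between 9.78 and 10.02.

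From fresh cells to 40 h of anti-CD3 with DMSO, the families split. Nr4a1 rose 2.28-fold and Egr1 1.28-fold, whereas Jun fell 2.44-fold, Fosb 2.14-fold and Nr4a3 1.30-fold. Limma called these 5 of the 10 members at an adjusted p under 0.05, against 19.6% of all genes. The 2 rises stand beside 8.89% of all genes called higher and the 3 falls beside 10.7% called lower. Over all genes that balance, 1773 higher and 2129 lower, turned to 2155 and 1822 with arrays set to 1 median, where the members' calls were again 2 and 3. The median change of the 10 members was 0.06, against 0.02 over all genes. Time, culture, vehicle and stimulation differ together between these groups and cannot be told apart. In bulk samples, fewer cells of a type and less RNA per cell cannot be told apart either.

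With 79-6 added to the same stimulation, Fosb alone passed the test among the 10 members, 1.66-fold higher than with DMSO. That is 1 of 10 against 4.36% of all genes called, 2.38% higher and 1.98% lower. At an unadjusted p under 0.05 limma counted 6 of 10 members (Egr1, Egr3, Nr4a3, Fosb, Jun and Junb) and 20.5% of all genes. Changes were above 0 for 7 members and for 55.2% of all genes, with medians of 0.27 and 0.02. The Fosb call was lost without any 1 of the 4 arrays compared, so this count rests on every array.

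Set against fresh cells, the 79-6 group had 4 members called: Nr4a1, Fos and Junb higher and Jun lower. Over all genes 26.0% were called, 12.0% higher and 13.9% lower. These 2401 and 2773 genes became 2978 and 2504 with arrays set to 1 median. The member median was 0.17 and that of all genes 0.05. With 2 arrays per group, groups without overlap are common. For DMSO against fresh the arrays did not overlap for 7 of 10 members and 60% of all genes. These figures were 8 and 49% for 79-6 against DMSO, and 8 and 64.5% for 79-6 against fresh. The 3 comparisons share arrays, so their values are given side by side and not as support for each other.

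**Figure D2:**
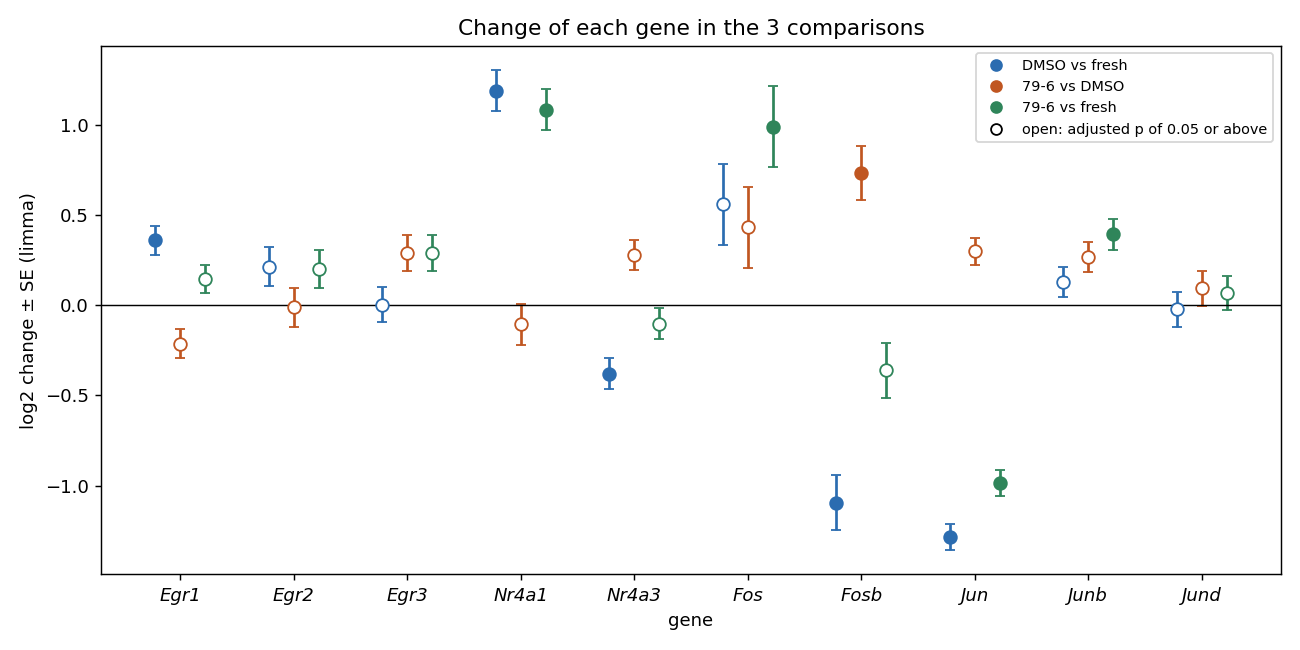
Log2 change with limma's standard error (y axis) of each gene (x axis) in each of the 3 comparisons; filled points have an adjusted p under 0.05 over 19937 genes. Nr4a1 (1.19) and Jun (-1.28) lie farthest from 0 for DMSO against fresh, and Fosb (0.73) has the only filled point for 79-6 against DMSO.

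Egr1, the family member best known for coupling receptor signals to growth and differentiation, read 9.73 and 9.78 in the fresh arrays, 10.19 and 10.04 with DMSO and 9.88 and 9.91 with 79-6. The 3 groups did not overlap, and their order was fresh, 79-6, DMSO. The rise from fresh to DMSO was 0.36 ± 0.079 (SE, adjusted p = 0.0178 by limma). That call was lost without fresh replicate 1 (adjusted p = 0.107), fresh replicate 2 (0.0707) or DMSO replicate 1 (0.108). The rise was also not called among all probe sets (adjusted p = 0.0548 by limma). Neither 79-6 against DMSO (-0.21 ± 0.079, adjusted p = 0.185 by limma) nor 79-6 against fresh (0.14 ± 0.079, adjusted p = 0.224) passed.

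Egr2, which acts with Egr1 and Egr3 in early thymocytes, read 7.19 and 7.40 fresh, 7.43 and 7.58 with DMSO and 7.59 and 7.41 with 79-6. The cultured arrays overlapped, and the lowest of them, 7.41, was next to the higher fresh array. None of its 3 changes was called by limma: 0.21 ± 0.11 for DMSO against fresh (adjusted p = 0.235), -0.01 ± 0.11 for 79-6 against DMSO (0.962) and 0.20 ± 0.11 for 79-6 against fresh (0.218). The 95% interval for 79-6 against DMSO ran from -0.26 to 0.24, which bounds the change of this gene with the compound on this array.

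Egr3 read 7.73 and 7.86 in fresh cells, 7.83 and 7.77 with DMSO and 7.97 and 8.20 with 79-6. Both 79-6 arrays were above the other 4, and fresh and DMSO arrays overlapped. The difference from DMSO was 0.29 ± 0.098 (adjusted p = 0.159 by limma) and from fresh 0.29 ± 0.098 (0.0698). The latter was called with arrays set to 1 median (adjusted p = 0.0341), among brighter genes (0.0396) or without 79-6 replicate 1 (0.0266). The DMSO change was 0.0018, with an interval from -0.23 to 0.23.

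Nr4a1, which encodes the receptor Nur77 and is a common reporter of T cell receptor signals, had the largest rise of the 10 members. It read 8.17 and 8.31 in fresh cells, 9.38 and 9.48 with DMSO and 9.17 and 9.48 with 79-6. The fresh arrays were separated from all 4 cultured ones, and the cultured groups overlapped. The rise was 1.19 ± 0.11 with DMSO (adjusted p = 0.000505 by limma) and 1.08 ± 0.11 with 79-6 (0.000615), and both calls held in every one of the 14 alternatives. Between 79-6 and DMSO the change was -0.11 ± 0.11 (adjusted p = 0.653), with an interval from -0.37 to 0.16.

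The mean level of myeloid cell marker lists was also higher in both cultured groups than in fresh cells, though not that of every marker. The mean level of 13 granulocyte and mast cell markers was 7.13 and 7.45 in fresh arrays, 7.94 and 7.91 with DMSO and 7.72 and 7.95 with 79-6, and their summed intensity was 4757 to 5437, 5674 to 5746 and 6919 to 8594. The neutrophil collagenase gene Mmp8 alone gave 80.5 and 123 of this sum in fresh arrays, 1493 and 1782 with DMSO and 3651 and 4397 with 79-6. Without Mmp8 the sum was lower in every cultured array than in the fresh ones. For 79-6 against fresh 4 of 13 were called higher and 2 lower, with a median of 0.17 against 0.05 over all genes. For DMSO against fresh 7 of 13 were higher and 2 lower, and for 79-6 against DMSO 2 higher and 4 lower. The 2 became 1 without either DMSO array or 79-6 replicate 2. The 4 became 1 without DMSO replicate 1 or 79-6 replicate 2 and 2 without DMSO replicate 2 or 79-6 replicate 1. Mmp8 rose from 6.33 and 6.94 in fresh arrays to 10.54 and 10.80 with DMSO, and read 11.83 and 12.10 with 79-6. Mmp8 and Kit were the 2 called higher for 79-6 against DMSO. The 4 called lower were Mpo, Prtn3, Ctsg and Cpa3. Their group means with DMSO and 79-6 were 8.20 and 7.34, 8.67 and 7.87, 7.025 and 6.29, and 9.90 and 8.47. The mean level of the macrophage and dendritic cell list, given beside Fos, was also higher in every cultured array than in the fresh ones. The part of either list in the Nr4a1 rise was not tested.

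Nr4a3, which encodes the related receptor Nor1, moved the other way. Its arrays read 5.94 and 6.07 fresh, 5.56 and 5.68 with DMSO and 5.95 and 5.85 with 79-6. DMSO was lowest without overlap, and the fresh and 79-6 arrays overlapped. The fall from fresh to DMSO was -0.38 ± 0.085 (adjusted p = 0.0195 by limma), a call lost without fresh replicate 2 (0.128) or DMSO replicate 1 (0.118). The fall was also not called among all probe sets (adjusted p = 0.0608 by limma). With 79-6 the level was 0.28 ± 0.085 above DMSO (0.124). It was the dimmest of the members and the only 1 below the median level of all genes (7.13), where array signal is least specific.

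Fos, the partner that gives AP-1 its short burst after a signal, had the widest replicates of the members in the fresh and 79-6 groups. It read 7.85 and 8.49 in fresh cells, 8.75 and 8.71 with DMSO and 8.91 and 9.41 with 79-6. The groups lay in that order without overlap, yet the fresh arrays themselves differed 1.56-fold. Against fresh, the change was 0.56 ± 0.22 with DMSO (adjusted p = 0.138 by limma) and 0.99 ± 0.22 with 79-6 (0.0164). The first was called without fresh replicate 2 (0.88, adjusted p = 0.0307), and the second was lost without fresh replicate 1 (0.67, 0.0636) or 79-6 replicate 2 (0.74, 0.0873). The change from DMSO to 79-6, 0.43 ± 0.22, did not pass (0.339).

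Macrophage and dendritic cell markers moved in the same order as Fos. Their mean level over 15 genes was 8.24 and 8.90 in fresh replicates 1 and 2, 9.40 and 9.51 with DMSO and 9.90 and 9.93 with 79-6. Of the 15, 6 were called higher and none lower for DMSO against fresh, 2 and none for 79-6 against DMSO, and 13 and none for 79-6 against fresh. The first count was 10 without fresh replicate 2 and 4 without either DMSO array; the second was 7 without either fresh array, 1 without 79-6 replicate 1 and 0 without either DMSO array or 79-6 replicate 2. Their summed intensity ran from 7334 to 11458 in fresh, 21572 to 22470 in DMSO and 28038 to 30943 in 79-6 arrays. Macrophage defining markers such as Csf1r (7.69 to 9.85) and Adgre1 (7.62 to 10.34) were measured in every array. Fresh replicate 2 was above replicate 1 both for Fos and for these markers. Their part in the Fos values was not tested.

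Fosb, a Fos relative that also makes a long-lived truncated protein by splicing, was the member that differed most between the stimulated groups. It read 9.04 and 9.44 in fresh cells, 8.23 and 8.06 with DMSO and 8.74 and 9.02 with 79-6. The order was DMSO, 79-6, fresh, without overlap, although the higher 79-6 array lay next to the lower fresh array. The fall with DMSO was -1.09 ± 0.15 (adjusted p = 0.00255 by limma) and was called in all 14 alternatives. The level with 79-6 was 0.73 ± 0.15 above DMSO (adjusted p = 0.0459) and -0.36 ± 0.15 from fresh (0.127). Without DMSO replicate 1 the adjusted p for 79-6 against DMSO was 0.137, without DMSO replicate 2 0.220, without 79-6 replicate 1 0.0561 and without 79-6 replicate 2 0.205. The change itself stayed between 0.59 and 0.87. The difference between 79-6 and fresh was called without fresh replicate 1 (adjusted p = 0.0459).

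Natural killer and innate lymphoid markers had the same low point in DMSO. Their mean level over 13 genes was 8.42 and 8.71 in fresh arrays, 8.06 and 7.94 with DMSO and 8.58 and 8.62 with 79-6. For DMSO against fresh 8 of 13 were called lower and 1 higher, and for 79-6 against DMSO 6 higher and 1 lower. The 8 falls were 5 without fresh replicate 2 or DMSO replicate 2. The 1 fall of the latter was lost without either DMSO array or 79-6 replicate 2. The 6 rises were 2 without DMSO replicate 1, 1 without DMSO replicate 2 or 79-6 replicate 2, and 3 without 79-6 replicate 1. Summed intensity was 10701 to 12531 in fresh, 8970 to 9136 in DMSO and 11212 to 11385 in 79-6 arrays. Ncr1, a defining receptor of these cells, lay between 7.01 and 8.23. Some of these genes, Gzmb and Il2rb among them, are also expressed by T cells. The mean level with 79-6 lay within the range of the fresh arrays, unlike that of Fosb. A low point in DMSO was not particular to this list. Mean levels of 12 mesenchymal and endothelial markers were 7.82 and 7.99 fresh, 7.64 and 7.80 with DMSO and 7.87 and 7.89 with 79-6. These 79-6 levels also lay within the range of the fresh arrays. Mean levels of 8 B cell markers were 6.665 and 6.63 fresh, 6.34 and 6.32 with DMSO and 6.41 and 6.43 with 79-6. Those of 5 erythroid markers were 7.07 and 7.29, 6.64 and 6.65, and 6.66 and 6.90. The B cell and erythroid lists followed the order of Fosb without overlap, but not each of their markers did. Without Alas2, the mean levels of the other erythroid markers overlapped between groups. Hemgn was highest in DMSO, with group means of 6.91 fresh, 7.51 with DMSO and 7.25 with 79-6. Cd79b, the only B cell marker above 7.13 by mean, was highest with 79-6. Its group means were 11.13 fresh, 10.88 with DMSO and 11.38 with 79-6. Kit, a receptor of mast cells and also of early thymic progenitors, had its low point in DMSO too, at 9.48 and 9.62 in fresh arrays, 7.80 and 7.98 with DMSO and 8.92 and 8.98 with 79-6. Kit is 1 entry of the granulocyte and mast cell list, whose mean level was lowest in fresh arrays. Cpa3, a mast cell gene of that list, was lowest with 79-6 (8.29 and 8.64). The part of these genes in the Fosb values was not tested.

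Jun, the main Jun family subunit of AP-1, fell furthest of the 10 members. It read 10.58 in both fresh arrays, 9.25 and 9.34 with DMSO and 9.63 and 9.55 with 79-6. All 3 groups were separate, in the order DMSO, 79-6, fresh. The fall was -1.28 ± 0.074 with DMSO (adjusted p = 5.54e-05 by limma) and -0.99 ± 0.074 with 79-6 (0.000144), and each was called in all 14 alternatives. The 79-6 level was 0.30 ± 0.074 above DMSO (0.0708), a 1.23-fold difference. It was called among brighter genes (0.0289), with trend and robust settings (0.0205) or with 16 added before log2 (0.0433).

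Thymic epithelial markers fell beside Jun. Of 12, 11 were called lower and none higher for DMSO against fresh, also without any 1 array, and 1 lower (Cldn4) for 79-6 against DMSO. That call was lost without any 1 of the 6 arrays and with the replicate block. Their mean level was 9.25 in both fresh arrays, 7.89 and 8.19 with DMSO and 8.11 and 8.09 with 79-6, and their summed intensity 12690 to 13005, 4035 to 5806 and 4970 to 5049. Foxn1, the defining epithelial factor, was between 6.62 and 8.20. Erythroid markers had 2 of 5 lower and 1 higher for DMSO against fresh, with 1 lower without fresh replicate 1 or DMSO replicate 2. In limma's test of 79-6 against DMSO 0 of 5 were called, with 1 at an unadjusted p under 0.05. Alas2, the heme synthesis gene of red cells, went from 8.56 and 9.59 in fresh arrays to 6.16 and 6.52 with DMSO. By group mean Epor fell from 7.44 to 6.98 and Hemgn rose from 6.91 to 7.51. Klf1 and Slc4a1 were not called. The part of either list in the Jun and Fosb falls was not tested.

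**Figure D3:**
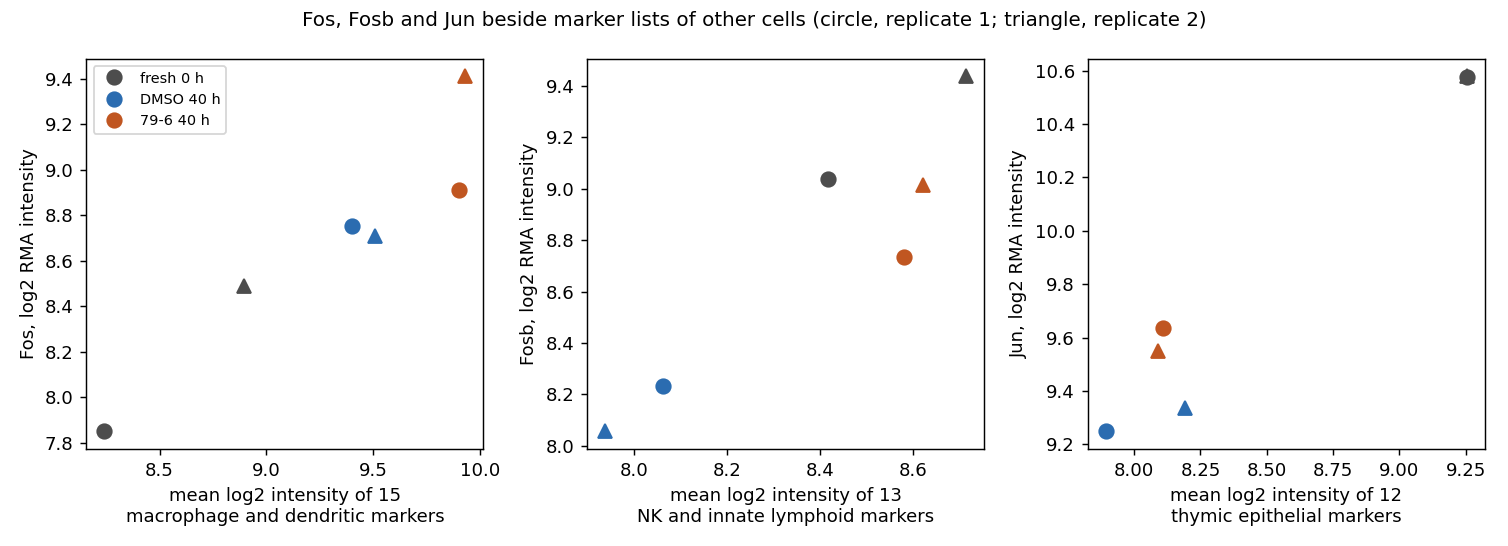
Log2 RMA intensity of Fos, Fosb and Jun (y axes) against the mean log2 intensity of 15 macrophage and dendritic, 13 NK and innate lymphoid and 12 thymic epithelial markers (x axes), a point per array. The fresh arrays hold the lowest Fos and macrophage values, the DMSO arrays the lowest Fosb and NK values, and the fresh arrays (superposed) the highest Jun and epithelial values. B cell, erythroid, and mesenchymal and endothelial markers, whose means were also lowest in DMSO, are not drawn.

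Junb, which can replace Jun in the dimer and often restrains its targets, was 1.31-fold higher with 79-6 than in fresh cells. It read 8.47 and 8.59 in fresh cells, 8.59 and 8.73 with DMSO and 8.93 and 8.92 with 79-6. Fresh and DMSO arrays overlapped, and the 79-6 arrays were above both. The only call was 79-6 against fresh, 0.39 ± 0.083 (adjusted p = 0.0126 by limma), lost without fresh replicate 1 (0.0903). Changes of 0.13 ± 0.083 with DMSO (0.369) and 0.26 ± 0.083 from DMSO to 79-6 (0.132) did not pass.

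Jund, the Jun gene with the steadiest expression in most cells, read 9.78 and 10.001 in fresh arrays, 9.88 and 9.85 with DMSO and 10.02 and 9.89 with 79-6. Fresh arrays enclosed the DMSO ones. Its change was -0.02 ± 0.095 with DMSO (adjusted p = 0.905 by limma) and 0.09 ± 0.095 from DMSO to 79-6 (0.638). The 95% intervals, -0.25 to 0.20 and -0.13 to 0.32, exclude a change as large as that of Jun with DMSO.

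The remaining family members and dimer partners were mostly not called, as were most genes. Of all genes, 19.6% were called for DMSO against fresh, 4.36% for 79-6 against DMSO and 26.0% for 79-6 against fresh. Among 13 measured of 14 listed, Atf3, a stress-induced bZIP factor, rose by 1.16 ± 0.18 from fresh to DMSO (adjusted p = 0.00454 by limma) and Mafk fell by 0.74 ± 0.089 (0.00139). Atf3 read 7.76 and 8.32 in fresh arrays, 9.12 and 9.28 with DMSO and 9.64 and 9.91 with 79-6, without overlap. In limma's test of 79-6 against DMSO 0 of 13 were called, with 4 at an unadjusted p under 0.05, and Atf3 was at 0.58 ± 0.18 (0.135). That count was 1 without 79-6 replicate 2 and 1 with the replicate block. For 79-6 against fresh 4 were higher and 1 lower, and without fresh replicate 1 the 4 became 1. The single rise from fresh to DMSO became 2 without either 79-6 array. From fresh to DMSO Egr4 changed by 0.27, Nr4a2 by -0.16, Fosl1 by 0.06 and Fosl2 by 0.18, with adjusted p-values of 0.302, 0.484, 0.686 and 0.123 by limma. From DMSO to 79-6 they were at -0.13, 0.07, -0.08 and 0.13.

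Among feedback genes, Nab2 encodes a co-repressor that binds Egr proteins and is itself an Egr target. It read 8.45 and 8.47 in fresh arrays, 9.98 and 10.05 with DMSO and 9.59 and 9.61 with 79-6. As for Egr1, the order was fresh, 79-6, DMSO without overlap. Nab2 rose by 1.55 ± 0.070 with DMSO (adjusted p = 2.24e-05 by limma) and fell by 0.41 ± 0.070 from DMSO to 79-6 (0.0256). The fall was not called without DMSO replicate 1 (0.103), DMSO replicate 2 (0.155), 79-6 replicate 1 (0.0626) or 79-6 replicate 2 (0.110). Its relative Nab1 rose by 0.36 ± 0.084 (0.0238), a call lost when fresh replicate 1 (0.147), fresh replicate 2 (0.0593) or DMSO replicate 1 (0.137) was left out, and was at 0.02 from DMSO to 79-6 (0.934).

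In the whole list of 19 feedback regulators 7 rose and 6 fell from fresh to DMSO, with a median of -0.03 against 0.02 over all genes. The dual specificity phosphatase gene Dusp10 (0.98) and the Ras GTPase activator gene Rasa2 (0.85) rose. The ubiquitin ligase gene Cblb (-1.87), the MAP kinase phosphatase gene Dusp1 (-0.88) and the Ras pathway inhibitor gene Spry1 (-0.60) fell. For 79-6 against DMSO the fall of Nab2 was the only call, and the replicate block added 1 rise.

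**Figure D4:**
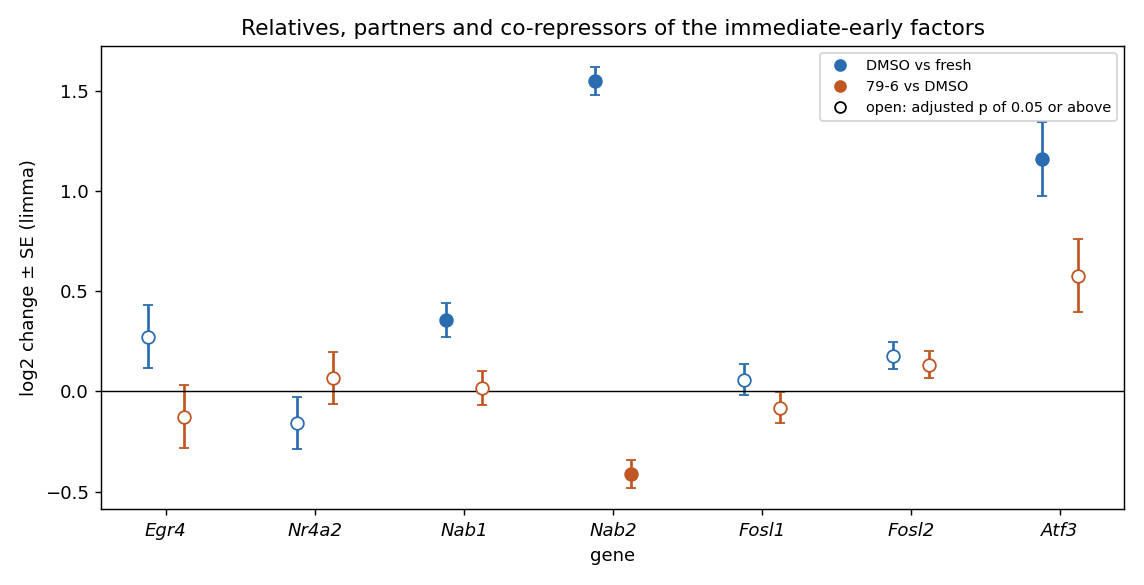
Log2 change with limma's standard error (y axis) of 7 relatives, partners and co-repressors of the immediate-early factors (x axis) for DMSO against fresh and 79-6 against DMSO; filled points have an adjusted p under 0.05. Nab2 (1.55) and Atf3 (1.16) rose most with DMSO, and Nab2 (-0.41) has the only filled point for 79-6 against DMSO.

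Of 26 other immediate-early genes, 7 were higher and 7 lower from fresh to DMSO, with a median of -0.07. The lower count dropped to 4 when fresh replicate 2 was left out and to 3 when DMSO replicate 1 was. Atf3 again, the quiescence factor gene Klf2 (1.01) and Klf10 (0.99) rose, and Dusp1, Klf4 (-0.76) and Myc (-0.63) fell. From DMSO to 79-6, 4 rose and 1 fell, with a median of 0.21. Klf2 rose by 1.01 ± 0.095 (adjusted p = 0.00372 by limma), kept without each of the 6 arrays in turn. Rgs1 (0.79) and the cytokine signal inhibitor gene Socs3 (0.71) rose and Myc (-0.51) fell. The Rgs1 call was lost without any 1 of the 4 arrays compared, that of Socs3 without DMSO replicate 1 or 79-6 replicate 2, and that of Myc without either DMSO array or 79-6 replicate 2. The 4 rises became 1 or 2 without any 1 of these arrays.

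Among 23 measured genes upstream of the members, 7 rose and 8 fell from fresh to DMSO. Rasgrp1, the Ras activator of thymocytes, rose by 1.58 and Mef2a, of the family that drives Nr4a1, by 1.58, with Creb1 at 0.63. Nfatc2 (-0.58) and the SRF partner genes Elk3 (-0.46) and Elk1 (-0.46) fell, the last not called without replicate 1 of either group. The 7 rises became 4 without any 1 of the fresh or DMSO arrays. Leaving out fresh replicate 1 gave 3 falls in place of 8, leaving out DMSO replicate 1 gave 2, and leaving out replicate 2 of either group gave 4. The falls numbered 5 with arrays set to 1 median or with the replicate block. With 79-6 the only call was a fall of Mef2a by 0.47 (adjusted p = 0.0213 by limma), lost without any 1 of the 4 arrays compared.

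In a list of 14 measured candidate targets of Egr and Nr4a factors in lymphocytes, which shares Nab2, Cblb and Dgkz with the feedback list, 6 rose and 2 fell from fresh to DMSO. The median was 0.11, against 0.02 over all genes. Id3, the inhibitor of E proteins that Egr factors induce, rose by 2.46 ± 0.078 (adjusted p = 7e-06 by limma), from 6.51 and 6.48 to 8.93 and 8.995. Cd5, whose level follows receptor signal strength, rose by 2.23. Ndrg1 was the other fall beside Cblb (-0.82, lost without fresh replicate 1). Cd69, in the immediate-early list too, is a further shared entry. From DMSO to 79-6 Ikzf2 rose by 0.46, and Ndrg1 (-0.96) and Nab2 fell. The Ikzf2 call was lost without any 1 of the 4 arrays compared, and that of Ndrg1 without DMSO replicate 2 or either 79-6 array. The single rise became 3 without either fresh array. Id3, at 8.996 and 8.86 with 79-6, overlapped the DMSO arrays.

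Handling and heat stress genes, listed because Fos and Jun also respond to tissue dissociation, had 3 of 11 higher and 1 lower from fresh to DMSO and a median of -0.02. Ddit4 (0.90), Dnajb1 (0.41) and Ddit3 (0.37, lost without either fresh array or DMSO replicate 2) rose and Hspb1 (-1.18) fell. Without DMSO replicate 2 the falls were 2. In limma's test of 79-6 against DMSO 0 of 11 were called, with 3 at an unadjusted p under 0.05. The mean level of the list was 10.36 and 10.37 in fresh, 10.34 and 10.38 in DMSO and 10.29 and 10.21 in 79-6 arrays. Whether handling contributed to the member values was not tested.

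For each member called in any comparison, the 3 other genes with the most similar profile were found by Euclidean distance over the 6 arrays after centring each gene on its mean, so a small distance means like size and order of values. For Nr4a1 these were Cnr2 (0.169), Paqr7 (0.222) and Kdm7a (0.236). For Jun they were Irf9 (0.158), Tmem176b (0.173) and Parp12 (0.178). For Fosb they were Oasl1 (0.200), Sema6d (0.251) and Ifi213 (0.323), and for Fos Aif1 (0.129), Rab7b (0.257) and Cd180 (0.275). Aif1 changed by 0.49 from fresh to DMSO and by 0.48 from DMSO to 79-6, where Fos changed by 0.56 and 0.43. Egr1 was nearest to Hpf1 (0.0909), Tex30 (0.0919) and Smc6 (0.0942), Nr4a3 to Btbd19 (0.0770), Cdc42ep2 (0.0828) and Apod (0.0857), and Junb to Sirt7 (0.0218), Npc2 (0.0600) and Surf1 (0.0636). A member that changed little has many genes near it, so distances are not comparable between members.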

How the data were processed

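Expression came from 6 whole-transcript arrays of the one-colour type. Per the submitters' processing notes the authors used RMA in the oligo package; no version or genome build is stated in the material used here. Each deposited value is an intensity after RMA, not yet logged (8.75 to 25316), and was converted to log2 before any test. RMA evens out the distribution of values between arrays, so a change is relative to the other genes of the array. The annotation gave 1 gene symbol to 21640 of 34760 probe sets, and each of 19937 genes was represented by its brightest probe set. Matching Entrez identifiers to RefSeq genes changed 0 symbols.

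A model with 1 mean per group was fitted to all 6 arrays across all genes with lmFit and eBayes of limma 3.58.1 (R 4.3.3), giving 3 residual and 4.24 prior degrees of freedom. Tests were two-sided. P-values were adjusted by Benjamini-Hochberg across the 19937 genes, and "called" means an adjusted value under 0.05. Errors are SE of changes, intervals are 95%. The precision rests on 2 arrays per group, since arrays give no counts. The fit was tested on simulated data. The members, lists and motifs were chosen with earlier results of these data known. From each list the text names up to 3 called genes with the largest change in each direction, and Egr4, Nr4a2, Nab1, Nab2, Fosl1, Fosl2 and Atf3 whatever their result; genes that illustrate marker lists were chosen after their values were seen, and some list entries were not analysed here. The alternatives were a replicate block, arrays set to 1 median, only genes above the median level, the mean of probe sets, all probe sets, trend and robust settings, 2 groups only, each array left out, and 16 added before log2. A planned comparison of the proteins was not run, and the promoter of Egr1 and Egr3 was not analysed here. Motifs were searched in Python 3.11.15 and figures drawn with matplotlib 3.10.9.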

Additional observations from a re-analysis of the deposited data

How the results depend on the processing

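The called members numbered 5 for DMSO against fresh, 1 for 79-6 against DMSO and 4 for 79-6 against fresh. With the replicate block the counts were again 5, 1 and 4. Same-numbered arrays share only a number as far as the labels say: their deviations from group means correlated across genes at 0.0036 (fresh and DMSO), 0.0948 (fresh and 79-6) and -0.0740 (DMSO and 79-6). Leaving out each array gave 3 to 5, 0 to 1 and 3 to 5 calls, and the lone array of a group was then assumed to vary like the others. For DMSO against fresh 3 were called among all 34760 probe sets, where the adjustment covers more tests. For 79-6 against DMSO 0 were called among all probe sets, and 2 among genes above the median level, with trend and robust settings, or with 16 added before log2; Nr4a3 is not among genes above that level. Changes near 0 turned sign when an array was left out. From fresh to DMSO, Egr3 ran from -0.0612 (without fresh replicate 1) to 0.0647, and was -0.0283 without DMSO replicate 1. Jund ran from -0.134 to 0.0868 (without fresh replicate 2), and was 0.0167 with arrays set to 1 median. From DMSO to 79-6, Egr2 ran from -0.103 to 0.0773 (without 79-6 replicate 2), with 0.0620 without DMSO replicate 2, and Nr4a1 from -0.261 to 0.0477 (without 79-6 replicate 1). From fresh to 79-6, Jund ran from -0.0420 (without fresh replicate 1) to 0.179. The cause was not tested. Of 417 changes of single members under alternatives, 385 kept direction and side of the threshold, 16 lost a call, 8 gained one and 8 turned sign. Setting arrays to 1 median moved the median of all genes by at most 0.04. Groups of 2 arrays limit how small a change can be told from replicate spread, and Nr4a3 lies in the dimmer part of the array.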
